A study of Mus musculus with 7 samples.

Results

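miR-335 was followed through 7 small RNA libraries of sorted embryonic mouse spinal cord cells. Its members were chosen by name as both mature arms of the Mir335 hairpin, mmu-miR-335-5p and mmu-miR-335-3p (miR-335-5p and miR-335-3p from here on), which are 2 of the 1908 mature miRNAs listed in each of the 2 deposited tables. At embryonic stage E10.5, Hb9::gfp embryos gave 2 libraries of GFP-positive spinal motoneurons and 2 of GFP-negative spinal cells. The Hb9::gfp transgene marks cells in which the motoneuron gene Hb9 is active, and the GFP-negative fraction is every other cell of the dissected cord, whatever its type. At E12.5, 1 library each came from GFP-positive motoneurons (Hb9::gfp), tdTomato-positive V2a interneurons (Chx10::cre;Rosa26::LSL::tdTomato) and tdTomato-positive V3 interneurons (Sim1::cre;Rosa26::LSL::tdTomato). In both interneuron lines Cre switches on the reporter permanently, so cells that expressed Chx10 or Sim1 earlier are also marked. The labels do not say whether the E10.5 replicates were separate litters, so a p-value here sets a difference against the spread of these particular libraries, and that spread may be purely technical.

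A miRNA hairpin is cut out of its host transcript and yields a duplex of a 5p and a 3p strand, of which usually the better loaded strand accumulates in Argonaute and represses mRNAs that match its seed, bases 2 to 8. Mir335 lies within Mest, the mesoderm-specific transcript, an imprinted gene read from the paternal allele in the embryo and strongly active in mesoderm-derived tissue. In human cells miR-335 has been studied as a metastasis suppressor in breast cancer and as a miRNA of undifferentiated mesenchymal stem cells.

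The mature arms are shown first because all later comparisons set one against the other, with the seed of each in capitals (RefSeq, GRCm38.p6, 5′ to 3′):
miR-335-5p: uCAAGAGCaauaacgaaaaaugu
miR-335-3p: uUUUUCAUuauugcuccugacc
The arms are 23 and 22 nt long, and their seeds differ, so they do not share seed matches. Among the mature mouse miRNAs of the RefSeq table, each seed occurs in 1 entry, the arm itself, so neither arm belongs to a wider seed family there. The hairpin, with the 5p arm and then the 3p arm in capitals, shows how they face each other:
Mir335 hairpin: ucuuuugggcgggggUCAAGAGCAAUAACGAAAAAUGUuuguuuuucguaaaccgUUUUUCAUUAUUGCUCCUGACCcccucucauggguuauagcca
In the structure predicted by RNAfold, 18 bases of the 5p arm pair with the 3p arm, and 17 bases separate the arms. The hairpin occupies 98 bases on the plus strand of chromosome 6, from 30741299 to 30741396. The 5p arm spans 30741314 to 30741336 and the 3p arm 30741354 to 30741375. Mest lies on the same strand, from 30723547 to 30748465 in GENCODE M21. Of 11 annotated Mest transcripts, 7 hold the hairpin in an intron, 0 in an exon and 4 do not span it. In each of the 7 the intron is the same, 30740825 to 30742140, and the hairpin begins 474 bases into its 1316 bases. The build used for the deposited tables is not given in the sources used here.

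Levels at E10.5 are in RPM (reads per 1000000 miRNA reads) and those at E12.5 in TPM (length-corrected values that sum to 1000000). The E10.5 libraries held 493233 to 802749 reads and those of E12.5 3603622 to 4605378, as recovered from the value of 1 read. miR-218-5p, the miRNA that marks motoneurons, checked the labels. It stood at 177885 and 200305 RPM in the E10.5 motoneuron libraries and at 6623 and 7315 RPM in the GFP-negative ones. At E12.5 it stood at 104198 TPM in motoneurons, 7558 TPM in V2a and 7282 TPM in V3 cells. Each miR-335 arm was counted in a bundle of its own, so neither shared reads with a near-identical row. Levels of one arm against the other are given as reads, since a read covers the whole of a mature miRNA.

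Both arms of miR-335 were far lower in E10.5 motoneurons than in GFP-negative spinal cells, and the 3p arm was lower by the larger factor. miR-335-3p had 1132 and 931 RPM in motoneurons, against 14550 and 13031 RPM in GFP-negative cells. The groups did not overlap. The means were 1031 ± 143 RPM in motoneurons and 13790 ± 1074 RPM in GFP-negative cells (SD, n = 2 each), a 13.4-fold difference. On the log2(RPM + 1) scale miR-335-3p fell by 3.74 (SE 0.17, limma adjusted p = 3.57e-05). miR-335-5p had 1018 and 779 RPM in motoneurons, against 6495 and 5209 RPM in GFP-negative cells. Its groups did not overlap either. The means were 898 ± 169 RPM in motoneurons and 5852 ± 909 RPM in GFP-negative cells (SD, n = 2 each), a 6.52-fold difference. On the same scale miR-335-5p fell by 2.71 (SE 0.20, limma adjusted p = 0.000268), and by 2.0 with quantile normalization (limma adjusted p = 0.00258).

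Both members passed the abundance filter in every E10.5 library, and both were called lower, in a comparison where 30.7% of the 492 tested miRNAs were called lower and 11.6% higher (limma adjusted p under 0.05). Those 151 lower and 57 higher calls became 118 and 85 with median-of-ratios size factors, 116 and 105 with totals without the 5 most abundant miRNAs, and 100 and 114 with quantile normalization. In 48.6% of tested miRNAs both motoneuron libraries lay below both GFP-negative libraries. A fall of at least 4-fold, which both arms showed, was seen in 10.8%. Ordered from the largest fall, miR-335-3p was in place 21 and miR-335-5p in place 31 of 492. The median log2 fold change of all tested miRNAs was -0.34, and it was -0.07 with size factors from the median of ratios, under which miR-335-3p fell by 3.47 and miR-335-5p by 2.43. In GFP-negative cells miR-335-3p made up 1.45% and 1.30% of all miRNA reads and was the miRNA of rank 13 and 18. In motoneurons it made up 0.113% and 0.0931% of reads, at rank 72 and 86. miR-335-5p held rank 81 and 94 in motoneurons, against 37 and 42 in GFP-negative cells.

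**Figure D1:**
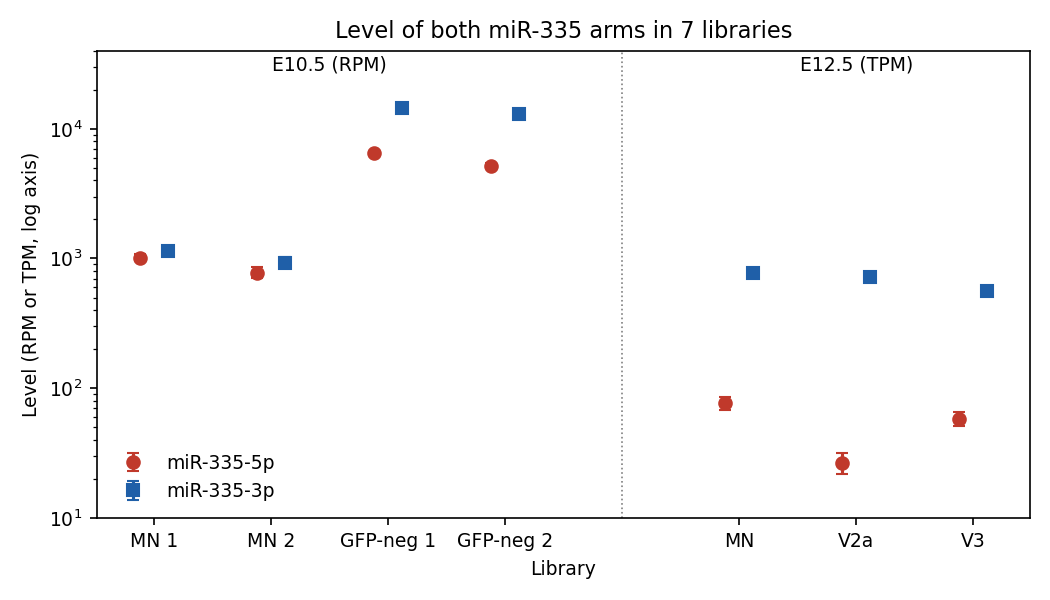
Level of miR-335-5p (circles) and miR-335-3p (squares) in each library on a log axis, in RPM at E10.5 (left) and TPM at E12.5 (right); bars are exact 95% counting intervals, often smaller than the symbol. Both GFP-negative libraries stand far above both motoneuron libraries of E10.5, and at E12.5 the 5p arm lies well below the 3p arm in all 3 populations.

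Markers of mesenchyme were, like miR-335, lower in motoneurons than in GFP-negative cells at E10.5. Of the 10 listed mesenchymal and smooth muscle miRNAs, arms of miR-199, miR-214, miR-143 and miR-145, 6 reached the abundance filter in both motoneuron libraries, and these 6 were lower in motoneurons. The other 4 (miR-143-5p, miR-145a-3p, miR-145a-5p and miR-214-5p) passed it through both GFP-negative libraries but not both motoneuron libraries, so their direction carries no weight. The miR-199 rows share reads with each other. The summed level of all 10 mesenchymal miRNAs was 1571 and 424 RPM in motoneurons, against 81413 and 94290 RPM in GFP-negative cells, an 88.1-fold difference of means. miR-145a-3p was at 0 in both motoneuron libraries. The motoneuron library with more mesenchymal signal, replicate 1, was also the one with more of both miR-335 arms, whereas the GFP-negative library with more mesenchymal signal, replicate 2, had less of both. miR-335-3p equalled 72.1% and 220% of the mesenchymal sum in the motoneuron libraries, against 17.9% and 13.8% in the GFP-negative ones, so the factor by which it was lower was smaller than that of these markers. Of 3 tested muscle miRNAs, 1 reached the filter in both motoneuron libraries and was lower, and the other 2 (miR-133b-3p and miR-206-3p) reached it in both GFP-negative libraries but not in both motoneuron libraries. The muscle list summed to 355 and 130 RPM in motoneurons and 4192 and 3796 RPM in GFP-negative cells. All 4 muscle rows lie in bundles with other rows, so their values are uncertain. Blood markers, of which 4 rows were present, summed to 12.46 and 6.08 RPM in motoneurons and 36.0 and 18.6 RPM in GFP-negative cells. The endothelial miR-126a arms summed to 508 and 295 RPM in motoneurons and 977 and 676 RPM in GFP-negative cells. Sensory neuron miRNAs summed to 1971 and 2325 RPM in motoneurons and 9171 and 9535 RPM in GFP-negative cells, with 3 of 3 lower. Of 11 miRNAs of neurons in general, 5 were higher and 0 lower. Among these 11, miR-138-5p did not reach the filter in both motoneuron libraries. The values of miR-7a-5p and miR-7b-5p, both called higher, and of miR-129-5p are uncertain, as each lies in a bundle of 2 rows. The 11 summed to 45930 and 51836 RPM in motoneurons and 37587 and 35822 RPM in GFP-negative cells. For comparison with these lists, 30.7% of all 492 tested miRNAs were lower and 11.6% higher. Of the 408 that reached the filter in both motoneuron libraries, 112 were lower and 57 higher. The part of other cell types in the level of miR-335 was not tested. In bulk samples, fewer cells of a type and less RNA per cell cannot be told apart.

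The balance between the arms also differed between the E10.5 groups, with the 5p arm holding a larger share in motoneurons. Of the miR-335 reads, 47.3% (817 of 1726; exact 95% interval 45.0 to 49.7) and 45.6% (384 of 843; 42.2 to 49.0) came from the 5p arm in motoneurons. In GFP-negative cells the shares were 30.9% (5050 of 16362; 30.2 to 31.6) and 28.6% (2806 of 9825; 27.7 to 29.5). The 3p arm thus had more reads in all 4 libraries, by a factor of 1.11 and 1.20 in motoneurons and of 2.24 and 2.50 in GFP-negative cells. The mean shares were 46.4% ± 1.26 in motoneurons and 29.7% ± 1.63 in GFP-negative cells (SD, n = 2 each), 16.7 percentage points apart. An exact two-sided permutation test gave p = 0.333, the smallest value that 2 libraries against 2 allow. All intervals reflect the counting of reads alone, because copies made by PCR do not count separate molecules.

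**Figure D2:**
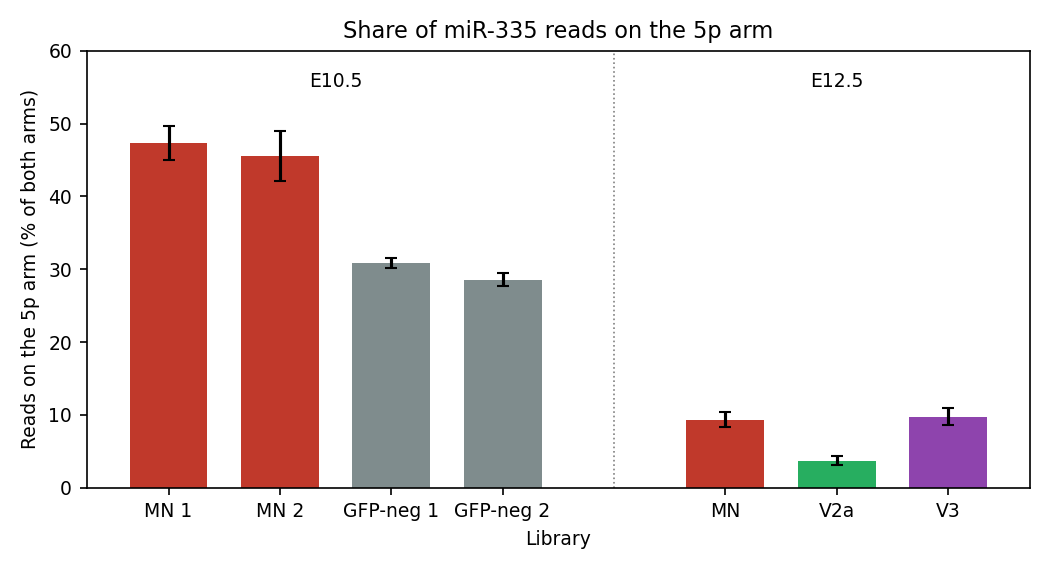
Share of miR-335 reads that came from the 5p arm in each library, in percent, with exact 95% binomial intervals that cover counting error only. The E10.5 motoneuron bars stand at 47.3% and 45.6%, above the GFP-negative bars at 30.9% and 28.6%, and the E12.5 bars lie below 10%.

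The arm ratio was then fitted across all 79 hairpins whose arms were both tested and each counted alone, a comparison added after the data were seen. For miR-335 the log2 ratio of 5p over 3p was 1.04 higher in motoneurons (SE 0.14, limma adjusted p = 0.00849). Of the 79 hairpins, 2.53% were called in either direction and 12.7% had an unadjusted p under 0.05. The other called hairpin was miR-296, from the imprinted Gnas-Nespas locus, whose ratio moved the opposite way, by -1.80 (SE 0.24, limma adjusted p = 0.00849). By size of the difference toward 5p, miR-335 was in place 6. The miR-335 difference ran from 0.96 to 1.12 over the alternatives, but its call did not always hold. Without the mean-variance trend the adjusted p was 0.262, and with any 1 library left out it ran from 0.143 to 0.487. Apart from the pseudocount, this ratio does not depend on how libraries are scaled.

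**Figure D3:**
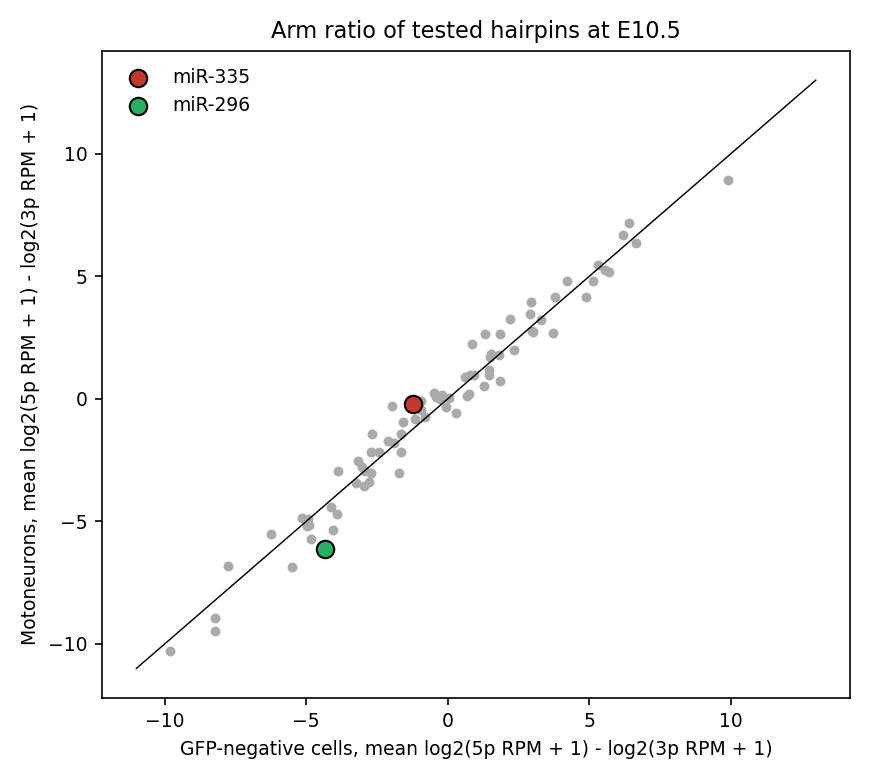
Mean log2(RPM + 1) of the 5p arm minus that of the 3p arm for 79 hairpins at E10.5, with GFP-negative cells on the horizontal and motoneurons on the vertical axis; the line marks equal values. miR-335 (red) lies above the line by 1.04 and miR-296 (green) below it by 1.80.

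At E12.5 the 3p arm was the main product in all 3 populations and differed little between them, whereas the 5p arm was lowest in V2a interneurons. These are single libraries, so no comparison has a replicate check. miR-335-3p stood at 772 TPM in motoneurons (exact 95% counting interval 743 to 801), 716 TPM in V2a (691 to 741) and 563 TPM in V3 cells (540.7 to 586.6). Motoneurons over V2a gave a ratio of 1.08 (1.02 to 1.14), motoneurons over V3 1.37 (1.30 to 1.45) and V2a over V3 1.27 (1.20 to 1.34). The order of the 3 levels depended on scaling: with totals that leave out the 5 most abundant miRNAs, motoneurons lay below both V2a (log2 ratio -0.54) and V3 (-0.38). With median-of-ratios size factors V2a lay below V3 (log2 ratio -0.15).

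miR-335-5p stood at 76.2 TPM in motoneurons (67.6 to 85.6), 26.4 TPM in V2a (21.9 to 31.5) and 58.0 TPM in V3 cells (51.0 to 65.6). The ratio of motoneurons over V2a was 2.89 (2.33 to 3.60), a log2 ratio of 1.49 that became 0.86 with totals without the 5 most abundant miRNAs. Motoneurons over V3 gave 1.31 (1.11 to 1.56), which turned round with totals that leave out the 5 most abundant miRNAs (log2 ratio -0.44). V2a over V3 gave 0.455 (0.364 to 0.567). V2a stayed the lowest of the 3 under each scaling tried. Neither arm differed by 4-fold in any pair. Of the 1014 miRNAs that reached 10 reads in at least 1 E12.5 library, 4.14% were at least 4-fold higher and 7.99% at least 4-fold lower in motoneurons than in V2a. Against V3, 8.68% were higher and 3.65% lower in motoneurons. In V2a, 10.8% were higher and 2.76% lower than in V3.

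The 5p arm took 9.35% of miR-335 reads in E12.5 motoneurons (283 of 3026; exact 95% interval 8.34 to 10.4), 3.71% in V2a (124 of 3342; 3.10 to 4.41) and 9.71% in V3 cells (252 of 2595; 8.60 to 10.9). The intervals of motoneurons and V3 overlap, and that of V2a lies below both. The odds of 5p over 3p were 2.67-fold higher in motoneurons than in V2a. Across 233 hairpins with at least 20 reads in each library, 27.9% differed by 4-fold or more in this ratio and the median size of the difference was 1.15 on the log2 scale, against 1.42 for miR-335. Between motoneurons and V3 the odds of miR-335 differed by -0.06 on the log2 scale, where 32.6% of 215 hairpins differed by 4-fold or more. Between V2a and V3 they differed by -1.48, where 28.3% of 240 hairpins did. The V2a difference of miR-335 from motoneurons thus lay within the range common to hairpins of these single libraries, in place 101 by size of 233.

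Mesenchymal markers were low at E12.5, at a summed 199 TPM in motoneurons, 249 TPM in V2a and 310 TPM in V3 cells. miR-335-3p was 388%, 287% and 182% of that sum in motoneurons, V2a and V3 cells. In the E10.5 motoneuron libraries it had been 72.1% and 220% of that sum. The part of other cell types in the E12.5 level of miR-335 was not tested.

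Between stages the arms of motoneurons parted. miR-335-3p stood at 1031 ± 143 RPM (SD, n = 2) at E10.5 and 772 TPM at E12.5, a ratio of 0.748. miR-335-5p stood at 898 ± 169 RPM (SD, n = 2) at E10.5 and 76.2 TPM at E12.5, which is 11.8-fold lower. The 2 tables were scaled separately, so stage and table cannot be told apart and no test was made. Of 449 miRNAs measured at both stages, 35.9% were at least 4-fold lower and 4.23% at least 4-fold higher at E12.5, with a median log2 ratio of -1.22. Against that median miR-335-3p, at -0.42, lay above and miR-335-5p, at -3.54, lay below, in place 55 from the lowest. The 5p share of miR-335 in motoneurons was 46.4% at E10.5 and 9.35% at E12.5, an 8.50-fold difference in odds. Of 161 hairpins, 44.7% differed by at least 4-fold in either direction in the same comparison, and miR-335 was in place 36 by size. Large shifts in either direction were thus common between these tables. Toward the 3p arm, 12 of the 161 hairpins, miR-335 among them, shifted as far or farther. The median shift was 0.57 toward the 5p arm on the log2 scale.

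**Figure D4:**
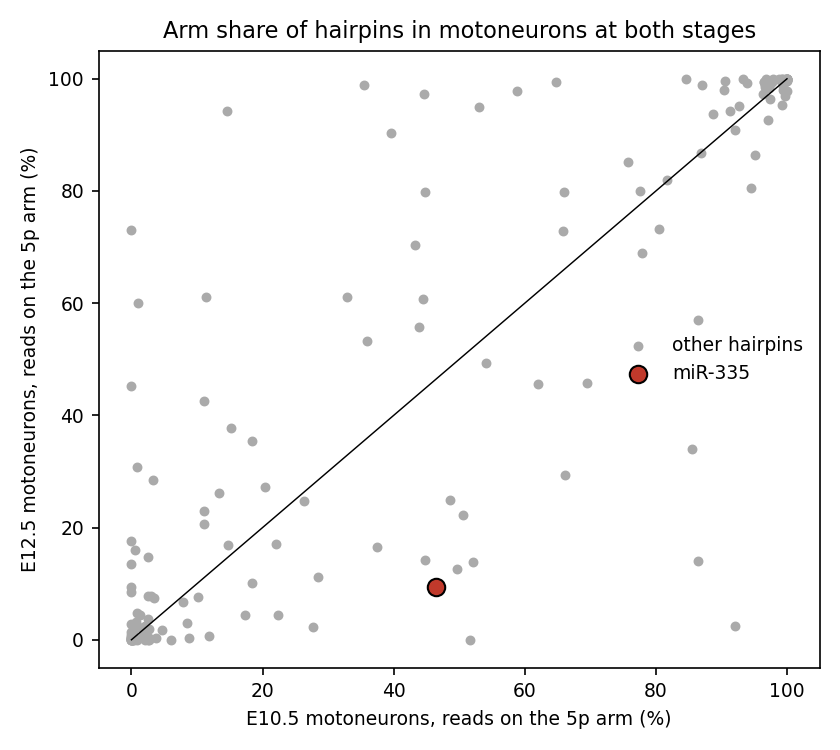
Share of reads on the 5p arm for 161 hairpins in motoneurons, with the mean of the 2 E10.5 libraries on the horizontal and the E12.5 library on the vertical axis, in percent; the line marks equal shares. miR-335 (red) is at 46.4% and 9.35%, and many other hairpins also lie far from the line.

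The calls among other imprinted miRNAs at E10.5 were mostly lower in motoneurons, though the loci differed. Genomic imprinting silences the allele of one parent, and several imprinted loci carry miRNAs. Of the 4 other loci listed, 114 rows were present and 80 were tested, of which 38 were lower and 2 higher in motoneurons (limma adjusted p under 0.05), with a median log2 fold change of -0.81 against -0.34 for all tested miRNAs. Those 38 lower and 2 higher calls became 25 and 4 with median-of-ratios size factors and 20 and 4 with quantile normalization. Of all 492 tested miRNAs, 151 were lower and 57 higher. These became 118 and 85 with median-of-ratios size factors and 100 and 114 with quantile normalization. In 3 of the 80 rows the fall was at least as large as that of miR-335-5p. The same held for 31 of all 492 tested miRNAs, both miR-335 arms among them. All 3 came from the Igf2-H19 locus and did not reach the filter in both motoneuron libraries, so that count carries no weight. Of the 80 rows, 62 reached the filter in both motoneuron libraries, and 32 of these were lower and 2 higher. Among all tested miRNAs 408 did so, of which 112 were lower and 57 higher.

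The Igf2-H19 locus encodes a fetal growth factor and a long noncoding RNA. Its 3 tested miRNAs reached the filter in both GFP-negative libraries but not in both motoneuron libraries, so their count in one direction carries no weight and their values are given singly. miR-483-3p, from an intron of Igf2, had 41.1 and 12.2 RPM in motoneurons, against 1150 and 756 RPM in GFP-negative cells, and fell by 5.31 (SE 0.54, limma adjusted p = 0.000557). Its log2 fold change was -6.15 without motoneuron replicate 1, -4.47 without motoneuron replicate 2 and -4.71 with quantile normalization. miR-483-5p had 44.9 and 14.2 RPM in motoneurons, against 902 and 715 RPM in GFP-negative cells, and fell by 4.93 (SE 0.51, limma adjusted p = 0.000557). The same settings gave miR-483-5p -5.73, -4.13 and -4.34. miR-675-5p, made from H19 RNA, was at 0 in both motoneuron libraries, against 23.2 and 27.9 RPM in GFP-negative cells, and so at least 5.19-fold lower when 0 is set to 3 reads per library. At E12.5 the locus was scarce, with a summed 4.62 TPM in motoneurons, 15.9 TPM in V2a and 49.8 TPM in V3 cells, while both miR-335 arms together had 848, 742 and 621 TPM in motoneurons, V2a and V3 cells.

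At the Gnas-Nespas locus, which encodes a stimulatory G protein subunit, 1 of 3 tested miRNAs was higher and 0 were lower (2 and 0 with median-of-ratios size factors, 1 and 1 with totals without the mesenchymal and muscle lists). miR-296-3p had 10483 and 8231 RPM in motoneurons, against 4665 and 3862 RPM in GFP-negative cells, and rose by 1.13 (SE 0.18, limma adjusted p = 0.00348). miR-298-5p had 5278 and 5269 RPM in motoneurons and 4134 and 4365 RPM in GFP-negative cells, with a log2 fold change of 0.31 that missed the threshold (limma adjusted p = 0.119) but passed with median-of-ratios size factors (0.59, limma adjusted p = 0.0206). In the large Dlk1-Dio3 locus 35 of 74 tested rows were lower and 1 was higher (of all 492 tested miRNAs, 30.7% and 11.6%), with a median of -0.81. Median-of-ratios size factors gave 22 lower and 2 higher (median -0.54), and quantile normalization gave 17 and 2 (median -0.27). Its most abundant member, miR-370-3p, had 28693 and 30724 RPM in motoneurons and 28829 and 27428 RPM in GFP-negative cells. Its log2 fold change was 0.08 (limma adjusted p = 0.671) and changed sign with quantile normalization (-0.086), while totals without the 5 most abundant miRNAs gave a call at 0.46. miR-127-3p, which lies antisense to Rtl1, had 16447 and 12779 RPM in motoneurons, against 23439 and 23110 RPM in GFP-negative cells, and fell by 0.68 (SE 0.16, limma adjusted p = 0.0151). That call was lost with median-of-ratios size factors (-0.41, limma adjusted p = 0.142), with totals without the 5 most abundant miRNAs (-0.31), without motoneuron replicate 2 (-0.50, limma adjusted p = 0.118) and without the mean-variance trend (adjusted p = 0.0797). miR-184, of the Rasgrf1 locus, was too scarce to test, with at most 8.11 RPM in any E10.5 library.

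**Figure D5:**
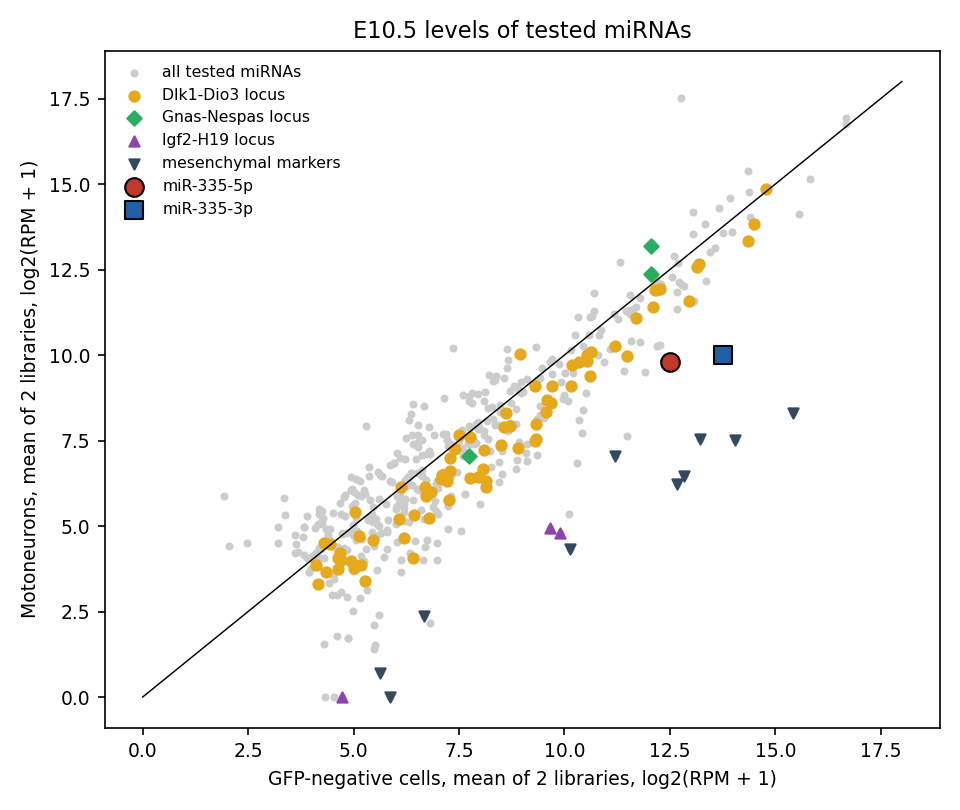
Mean log2(RPM + 1) of the 492 miRNAs tested at E10.5, with GFP-negative cells on the horizontal and motoneurons on the vertical axis; colours mark miR-335, other imprinted loci and mesenchymal markers, and the line marks equal levels. Both miR-335 arms lie farther below the line than each Dlk1-Dio3 and Gnas-Nespas miRNA tested. The mesenchymal markers lie farther below it than both arms, but 4 of the 10 did not reach the filter in both motoneuron libraries, so their place carries no weight.

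Hairpins near Mir335 on chromosome 6 were compared next. Within 1 Mb lie Mir182, Mir96 and Mir183, 572 to 575 kb away, and Mir29a and Mir29b-1, 321 to 322 kb away, all on the opposite strand. Of their 10 rows, 3 were tested, the 5p arms of the cluster that is known from sensory neurons. All 3 were lower in E10.5 motoneurons, in a comparison where 30.7% of all 492 tested miRNAs were called lower. They belong to 1 cluster and are the same 3 rows as the sensory neuron list above, so they are no separate result. miR-182-5p had 695 and 770 RPM in motoneurons, against 3815 and 3947 RPM in GFP-negative cells, and fell by 2.41 (SE 0.16, limma adjusted p = 0.000204), or by 1.68 with quantile normalization. miR-183-5p fell by 1.99, or by 1.15 with quantile normalization, and miR-96-5p fell by 1.71. The other 7 rows, with both arms of miR-29a among them, stayed at or under 28.3 RPM in every E10.5 library.

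The 5 miRNAs whose profile over the 7 libraries lay closest to that of miR-335-5p were miR-503-5p, miR-378a-3p, miR-322-3p, miR-351-5p and miR-450a-5p. Likeness was the distance between log2 values centred within each table, and ran from 1.01 to 1.28 for these 5, among 449 miRNAs. All but miR-378a-3p, for which no position was taken, are placed on chromosome X by RefSeq. miR-503-5p had 127.1 and 109.5 RPM in motoneurons, against 542.8 and 571.8 RPM in GFP-negative cells at E10.5, and 19.6, 15.3 and 26.7 TPM in E12.5 motoneurons, V2a and V3 cells. miR-351-5p had 120, 46.3 and 153 TPM in E12.5 motoneurons, V2a and V3 cells. Like miR-335-5p, miR-503-5p and miR-351-5p were lowest in V2a, whereas miR-378a-3p and miR-322-3p were lowest in V3 and miR-450a-5p in motoneurons. The E12.5 values were part of the likeness, so a shared order is no separate result. miR-378a-3p lies in a bundle of 4 rows, so its values are uncertain. miR-335-3p was in place 19 of this order, at a distance of 1.56.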

How the data were processed

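Per the labels' protocols, cells were freed with papain and sorted by fluorescence, and miRvana total RNA went into NEBNext small RNA libraries read on HiSeq machines. The submitters' processing notes name Bowtie2; the program that counted, the build and the miRNA annotation are not stated in the sources at hand. The E10.5 table holds RPM values as deposited by the authors, with library sums within 1 of 1000000. The E12.5 values were deposited by the authors without a unit and were read as FPKM: multiplied by RefSeq lengths (1603 of 1908 rows; 22 nt otherwise), 74.0% to 80.2% of low values in rows counted alone were whole reads within 0.05. Dividing by each library's sum turned them into TPM. For RPM that share was 97.5% to 100.0%, but 87.4% to 90.0% over all rows, so no count model was used. A count of 0 allows 3 reads, 3.74 to 6.08 RPM at E10.5.

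For E10.5, limma 3.58.1 (R 4.3.3) was run on log2(RPM + 1), a scale that understates changes of low miRNAs, with a mean-variance trend and two-sided p-values adjusted by Benjamini-Hochberg (threshold 0.05). Only miRNAs with 15.2 RPM or more (equal to 10 reads in a library of median depth) in 2 libraries were tested. The procedure was also run on simulated reads, with changes drawn equally in both directions and the most abundant miRNAs left unchanged. The calls in these data were mostly lower, so that run does not vouch for them. Hairpins were folded with RNAfold 2.7.2. For E12.5, with 1 library per population, no test was made. The members and lists were chosen with earlier results of these data known. Named beside the members were the 2 most abundant miRNAs of each imprinted list and the 5 nearest profiles. Any miRNAs that share a seed or lie within 1 Mb were to be named too. miR-675-5p, the miR-296 arm ratio and single markers were named after their values were seen. Alternatives were other scalings, pseudocounts and filters, the replicate number as a block, no trend, and leaving out each library.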

Additional observations from a re-analysis of the deposited data

How the results depend on the processing

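Both miR-335 arms stayed lower in E10.5 motoneurons, with an adjusted p under 0.05 (limma), in all 13 alternatives. The log2 fold change of miR-335-3p ran from -3.89 to -3.60 with 1 library left out and from -3.88 to -3.28 otherwise, and that of miR-335-5p from -2.90 to -2.51 and from -2.84 to -2.0. The count of miRNAs called lower was 151, and 106 to 125 with 1 library left out, 100 with quantile normalization. The count called higher was 57, and 27 to 48 with 1 library left out, 105 with totals without the 5 most abundant miRNAs, 114 with quantile normalization and 34 with only all-zero miRNAs removed. The arm-ratio difference of 1.04 was no longer called without the trend (1.04) or with 1 library left out (0.96 to 1.12). Leaving out a library assumes that the lone library of its group varies like the other group. The causes of these changes were not tested.

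No label says that replicate numbers pair the libraries, and the deviations of same-numbered libraries correlated at 0.26 across miRNAs. With the replicate block the values were -3.74 for miR-335-3p (limma adjusted p = 0.000133) and -2.71 for miR-335-5p (limma adjusted p = 0.00052), with 162 called lower and 67 higher. The block called 17 of 79 arm ratios, against 2 without it.

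At E12.5, totals without the 5 most abundant miRNAs gave log2 ratios of 0.86 (miR-335-5p) and -0.54 (miR-335-3p) for motoneurons over V2a, -0.44 and -0.38 for motoneurons over V3, and 0.15 for miR-335-3p in V2a over V3. Median-of-ratios factors gave miR-335-3p 0.36, 0.21 and -0.15 in these 3 comparisons and miR-335-5p -1.59 in V2a over V3. Of 14 other miRNAs tested, miR-370-3p changed sign, at -0.059 with totals without mesenchymal and muscle lists and -0.086 with quantile normalization. With single E12.5 libraries and 2 per E10.5 group, precision is limited by the number of libraries rather than by reads.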
